A study of Mus musculus with 3 samples.

Results

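Chromatin access at 9 genes of the B lymphocyte programme was measured in aged blood stem cells: Ebf1, Pax5, Il7r, Dntt, Rag1, Rag2, Cd79a, Vpreb1 and Igll1. The genes were taken as a list by name, 9 of the 21911 protein-coding genes annotated on the nuclear chromosomes, and their level was read over the promoter, over open sites and over the whole gene with 2 kb upstream. The cells were long-term hematopoietic stem cells (LT-HSCs) from bone marrow of wild-type female C57BL/6 mice aged 24 months. After enrichment on the receptor c-Kit they were sorted by CD150 on their surface and the absence of CD48 and CD34, within the stem and progenitor fraction called LSK. How many animals were pooled is not known here. They were profiled by DOGMA-seq, which reads ATAC fragments (DNA released where the transposase Tn5 can cut), RNA and oligo-tagged antibodies from the same cell. All cells came from 1 pool with 1 library per assay, so nothing here has a replicate and no test was possible. Intervals are 95% intervals that cover counting error only. They are exact for counts of fragments and too narrow where the ends of fragments (cuts) were counted.

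B lymphocytes arise in the bone marrow from stem cells through progenitors that gain lymphoid genes step by step. Signals through the interleukin-7 receptor and the transcription factors EBF1 and PAX5 commit these progenitors to the B lineage, and the RAG recombinase with terminal transferase then assembles immunoglobulin genes. Before a light chain is made, the heavy chain pairs with the surrogate light chain, built from the products of Vpreb1 and Igll1, and signals through CD79A. A gene that is silent but already accessible is often called primed.

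The fragment file held 43705382 fragments, of which 38498362 nuclear fragments belonged to the 3629 cells kept, those with at least 10 antibody tags among the 3724 cells of the antibody table. A cell held a median of 10287 fragments (3853 to 45069), so 1 fragment over a gene in the whole pool is worth 0.0260 FPM (fragments per 1000000 nuclear fragments of the cells kept). Levels of different genes were compared per length, as the density of Tn5 cuts relative to the genome mean of 29.1 cuts per kb, and a promoter (1 kb centred on the gene start) was called open at 5 times that mean. By this rule 61.5% of coding genes were open, with a median density of 15.9 times the mean. Of 1092 olfactory receptor genes, which blood cells do not use, 6 were open, with a median of 0.0344 times the mean. Of 10 stem cell markers 8 were open, led by Kit (71.0 times the mean) and Hlf (70.8 times), while Mecom (0.309 times) and Ly6a (4.78 times) were not at their most upstream annotated start.

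The label of the list, closed or primed, covered a split between genes. At the gene starts annotated by GENCODE, 2 of the 9 promoters, Ebf1 and Vpreb1, were open against 61.5% of all coding genes. Pax5 and Rag2 lay between the genome mean and the threshold, and Il7r, Dntt, Rag1, Cd79a and Igll1 lay near the mean (0.756 to 1.2 times). The annotation chosen for the start changed this picture for 2 genes. At RefSeq starts, where 65.9% of 16522 coding genes were open, 1 of the 9 was open, because the RefSeq start of Vpreb1 lies elsewhere. At the most accessible annotated transcript start of each gene, where 66.3% of coding genes were open, 3 were open, with Pax5 added. These 2 other readings are described with the genes below.

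**Figure D1:**
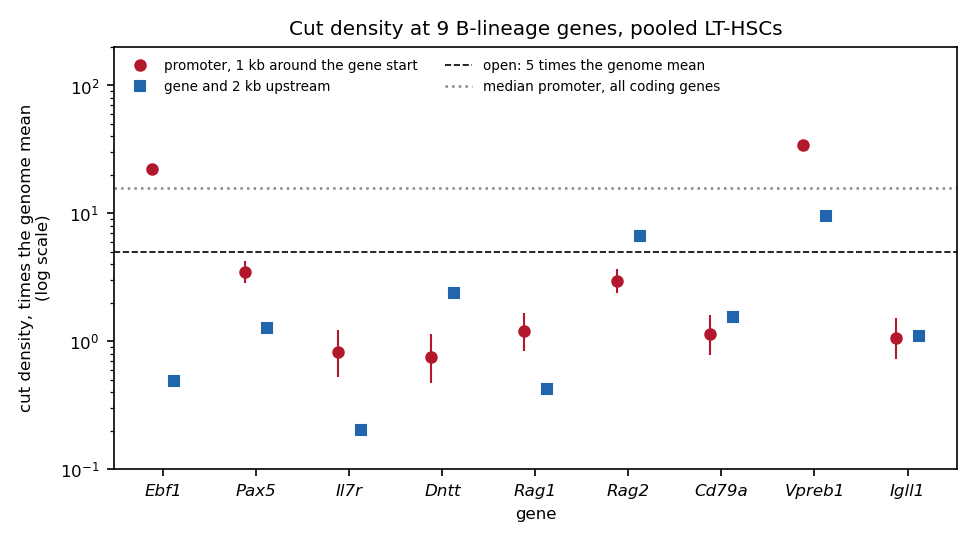
Density of Tn5 cuts at the 9 B-lineage genes as times the genome mean (log axis), for the 1-kb promoter (red circles, with 95% counting intervals) and for the gene with 2 kb upstream (blue squares, whose intervals are not drawn). The intervals treat both ends of a fragment as independent cuts and so are too narrow. The dashed line is the open threshold of 5 times the mean and the dotted line the median promoter of all coding genes. Of the promoters only Ebf1 (22.1 times) and Vpreb1 (34.5 times) lie above the lines, and of the gene windows Rag2 (6.67 times) and Vpreb1 (9.59 times) lie above the threshold.

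The sequences that these levels refer to are shown first for the genes on which the contrast rests, from the RefSeq mm10 genome, 5′ to 3′ on the strand of the gene. The first pair are the 200 bases upstream of the open Ebf1 start (chr11:44617117-44617316, plus strand) and of the closed Il7r start (chr15:9530177-9530376, minus strand). Capitals mark CpG dinucleotides, 9 in the Ebf1 stretch and 1 in the Il7r stretch.
Ebf1 upstream: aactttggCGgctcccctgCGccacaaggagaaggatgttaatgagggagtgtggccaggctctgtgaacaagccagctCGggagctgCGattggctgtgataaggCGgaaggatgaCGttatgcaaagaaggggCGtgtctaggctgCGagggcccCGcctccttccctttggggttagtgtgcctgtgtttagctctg
Il7r upstream: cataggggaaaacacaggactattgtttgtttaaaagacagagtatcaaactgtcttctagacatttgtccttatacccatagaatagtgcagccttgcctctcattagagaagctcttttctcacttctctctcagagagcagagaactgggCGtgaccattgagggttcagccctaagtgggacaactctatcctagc
The next is the centre of the strongest open site of Pax5, which lies inside the gene (chr4:44704344-44704543, minus strand), again with CpG in capitals. It holds 27 CpG and is 76.0% G and C.
Pax5 open site: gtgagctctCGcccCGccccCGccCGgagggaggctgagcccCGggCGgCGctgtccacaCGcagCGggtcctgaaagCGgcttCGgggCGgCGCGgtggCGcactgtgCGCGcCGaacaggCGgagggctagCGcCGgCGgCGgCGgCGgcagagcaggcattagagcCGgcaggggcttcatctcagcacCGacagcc

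EBF1 is a transcription factor needed for commitment to the B lineage. The Ebf1 gene spans 391 kb (chr11:44617317-45008091, plus strand, ENSMUSG00000057098.14). Its promoter held 383 fragments, 9.95 FPM (8.98 to 11.0), or 22.1 times the genome mean, at the 54.8th percentile of coding genes. A fragment there was seen in 9.45% of cells (8.52% to 10.5%). In 100-bp steps the density reached 86.7 times the mean in the step just upstream of the start. In that same step the median over all coding genes was 19.6 times and their average 82.5 times the genome mean. The RefSeq start, 783 bp downstream, was open as well at 14.3 times the mean, and a second RefSeq start 2911 bp downstream stood at 7.67 times.

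The openness of Ebf1 was concentrated in few places of a long gene. Over the gene with 2 kb upstream the cut density was 0.489 times the genome mean (2816 fragments, 25.9th percentile of coding genes). An open site is a run of 500-bp bins at 5 times the mean or more; 6 such sites touched the Ebf1 window and held 40.8% of its cuts, and the rest of the window stood at 0.295 times the mean. The largest covered the start (chr11:44616501-44621000, 1494 cuts, 11.4 times the mean, in 17.5% of cells). The other 5 lay 48.0, 67.4, 276, 280 and 391 kb downstream of the start and were seen in 1.90% to 5.73% of cells. Outside the window, sites centred at −5909 and −35765 bp from the start were open at 12.1 and 22.2 times the mean, in 13.1% and 8.13% of cells. The 2 nearest other coding gene starts, those of Rnf145 and Ublcp1, lie 98353 and 146819 bp away. The unclassified transcript Gm37695, on the opposite strand, starts in or within 500 bp of the site at the Ebf1 start. The site at −5909 bp is centred in an intron of Gm37695. ATAC fragments carry no strand, so the share of Gm37695 in these sites cannot be told apart.

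PAX5 holds B-cell identity by activating B-lineage genes and repressing others. At the 5′ end of the Pax5 gene record (chr4:44524757-44710487, minus strand, ENSMUSG00000014030.15), 70 fragments gave 1.82 FPM (1.42 to 2.3) and 3.51 times the genome mean, below the open threshold. The RefSeq start, 207 bp further upstream, gave 4.50 times the mean and was also below it. The 200 bases upstream of the gene record hold the word AAAG 25 times. In 100-bp steps the density was 0.344 times the mean just upstream of the gene record and 9.63 times in the step centred 450 bp upstream. How well reads align in this repeated stretch was not tested.

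The strongest site of Pax5 lay inside the gene instead. It covered chr4:44701501-44705500, centred 6.04 kb downstream of the gene start in an intron of the longest record, and held 2724 cuts, 23.4 times the genome mean, with a fragment in 29.5% of cells (28.0% to 31.0%). An annotated shorter Pax5 transcript starts there at 44704006, where the 1-kb window held 707 fragments, 18.4 FPM and 35.4 times the mean, and another starts at 44703413, at 12.8 times. The unclassified transcript 5730488B01Rik also lies in this site, and ATAC fragments carry no strand, so its share cannot be told apart. A second broad site began 514 bp upstream of the start (chr4:44711001-44714500, 8.77 times the mean, in 11.5% of cells). Of its fragments 12% were up to 120 bp, the length class without a nucleosome, compared with 39.9% at the internal site, 39.5% at open coding promoters and 28.9% of all fragments. The other 4 sites, 37.8 to 152 kb downstream, were seen in 3.53% to 5.04% of cells. The 6 sites together held 61.3% of the cuts in the Pax5 window.

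**Figure D2:**
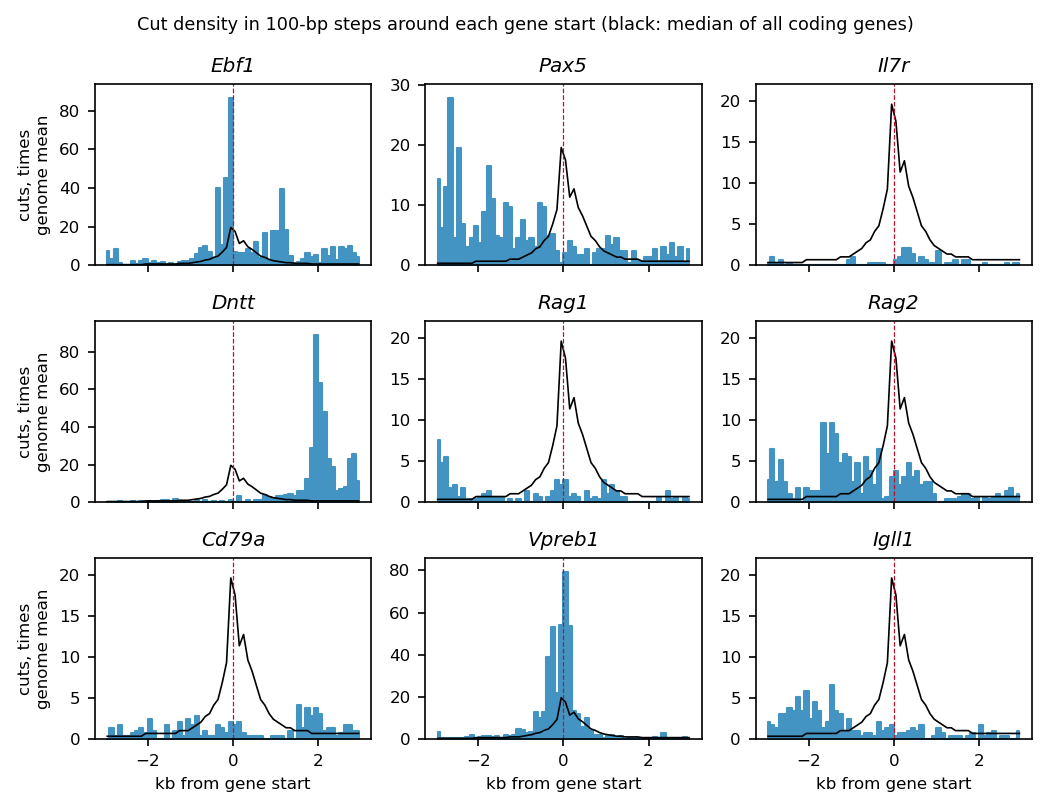
Cut density in 100-bp steps from 3 kb upstream to 3 kb downstream of each gene start, as times the genome mean (blue; each panel has its own axis), with the median of all coding genes in black and the start as a dashed line. Ebf1 and Vpreb1 peak at the start (86.7 and 79.4 times the mean), Dntt peaks 2 kb inside the gene (89.1 times), and Il7r stays at or below 2.06 times throughout.

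Il7r encodes the alpha chain of the interleukin-7 receptor, which early B and T progenitors need to survive and divide. It was the least accessible of the 9 genes over its length (chr15:9505788-9530176, minus strand, ENSMUSG00000003882.5). Its promoter held 16 fragments, 0.416 FPM (0.238 to 0.675) and 0.825 times the genome mean, and the gene with 2 kb upstream held 78 fragments, 0.202 times the mean. A promoter fragment was seen in 0.413% of cells (0.232% to 0.681%). Il7r had no open site in its window or within 50 kb of the gene, and the nearest site lay 66325 bp from its start. The same held for bins of 200 bp and for a threshold of 3 times the mean inside the window. The nearest other coding gene starts were Capsl (open, 94148 bp away) and Ugt3a2 (closed, 194626 bp away). By contrast, the partner genes of the receptor were open: the common gamma chain Il2rg at 10.9, and the kinases Jak1 and Jak3 at 88.3 and 81.5 times the mean.

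Dntt encodes terminal transferase, which adds untemplated bases at immunoglobulin and T-cell receptor joints. Its promoter was closed, while sites in its intronic sequence were open. At the start (chr19:41029275-41059525, plus strand, ENSMUSG00000025014.13) 16 fragments gave 0.416 FPM (0.238 to 0.675) and 0.756 times the genome mean. Over the gene with 2 kb upstream, 1118 fragments gave 2.38 times the mean, the 52.8th percentile of coding genes, and 69.6% of these cuts lay in 3 open sites. The strongest, chr19:41030501-41032500, was centred 2.05 kb downstream of the start in intronic sequence, with 1138 cuts, 19.6 times the mean and a fragment in 13.1% of cells (12% to 14.2%). It ranked at the 81.3rd percentile of all open sites by cuts. Of its fragments 42.2% were up to 120 bp. No annotated coding gene start lies in this site. Its central 200 bases (chr19:41031227-41031426, plus strand) hold AGATAA, the core bound by GATA factors, in capitals below; this word, on either strand, is in 7.85% of the central 200 bases of all 66646 open sites.
Dntt open site: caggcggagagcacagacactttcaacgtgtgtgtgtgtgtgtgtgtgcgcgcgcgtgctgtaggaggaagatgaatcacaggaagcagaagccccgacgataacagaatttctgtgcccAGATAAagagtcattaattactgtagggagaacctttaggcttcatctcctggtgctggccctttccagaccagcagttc

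The surroundings of Dntt were open too. Within 50 kb of the gene there were 14 open sites, those inside it included. Counted the same way there were 16 for Cd79a, 9 for Ebf1, 7 each for Pax5, Rag1, Rag2 and Vpreb1, 6 for Igll1 and 0 for Il7r. Open surroundings were therefore not particular to Dntt among the genes listed. Upstream, the strongest lay 13.1 kb from the start (22.5 times the mean, in 12.2% of cells). The site 35.0 kb upstream is at the promoter of Blnk, a B-cell adaptor gene whose own promoter was open at 8.80 times the mean. Opalin, the next gene, was closed.

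RAG1 and RAG2 form the recombinase that cuts immunoglobulin and T-cell receptor genes, and their genes lie tail to tail within 1 locus. At both starts the chromatin was below the open threshold. The Rag1 promoter held 22 fragments (0.571 FPM, 0.358 to 0.865, 1.2 times the genome mean), and the gene (chr2:101638282-101649501, minus strand) had no open site. Its start lies 31 bp from that of B230118H07Rik, a coding gene on the same strand, so that the pair share a promoter window. The Rag2 promoter held 62 fragments (1.61 FPM, 1.23 to 2.06, 2.96 times the mean). Its counting interval lies above that of Rag1.

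Over its length Rag2 looked far more accessible than Rag1. The Rag2 window (gene at chr2:101624718-101632529, plus strand) held 956 fragments, 6.67 times the genome mean and the 80.0th percentile of coding genes, whereas Rag1 stood at 0.427 times. Most Rag2 fragments came from a single site, chr2:101628001-101629500, centred 4.26 kb downstream of the start, with 1439 cuts, 33.0 times the mean and a fragment in 17.4% of cells. Annotated transcripts of B230118H07Rik, which runs across Rag2 on the opposite strand, start in this site. Without fragments over promoters of other coding genes the Rag2 level fell from 2.53 to 0.548 FPM per kb. On the side of Rag1 away from Rag2, sites centred at −3501 and −28936 bp from the Rag1 start were open at 14.3 and 28.9 times the mean; the latter is at the promoter of Traf6.

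CD79A is the signalling chain of the B-cell receptor. The Cd79a promoter (gene at chr7:24897381-24902197, plus strand) was closed, with 21 fragments, 0.545 FPM (0.338 to 0.834) and 1.13 times the genome mean. The only open site touching its window belongs to the promoter of the neighbour Arhgef1, whose start lies 5531 bp from that of Cd79a, and only the edge of the site fell in the window, where it held 9.21% of the cuts of the window. The next neighbour, the ribosomal gene Rps19, was open at 185 times the mean. Cd79b, the partner chain, was open at 6.57 times.

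Vpreb1 and Igll1 encode the components of the surrogate light chain and lie 6858 bp apart on the minus strand of chromosome 16. At the GENCODE start, Vpreb1 (chr16:16868403-16870843) had the highest promoter level of the 9 genes, with 552 fragments, 14.3 FPM (13.2 to 15.6), 34.5 times the genome mean and a fragment in 13.1% of cells. This start lies 107 bp from the start of Top3b, a topoisomerase gene read in the other direction, which stood at 34.2 times the mean. All 552 fragments also overlapped the promoter window of Top3b or another coding gene, so the 2 genes cannot be told apart there. The RefSeq start of Vpreb1, at 16869255 and 1588 bp downstream, held 15 fragments, 0.390 FPM (0.218 to 0.643) and 0.688 times the mean. Igll1 (chr16:16860671-16863985) was closed under either annotation, with 19 fragments, 0.494 FPM (0.297 to 0.771) and 1.07 times the mean. Its gene held no open site.

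The closed starts of Cd79a and Igll1 carry E-boxes, the words CAGNTG bound by E2A proteins, capitalized below in the 200 bases upstream of Cd79a (chr7:24897181-24897380, plus strand) and of Igll1 (chr16:16863986-16864185, minus strand). There is 1 in Cd79a and there are 3 in Igll1.
Cd79a upstream: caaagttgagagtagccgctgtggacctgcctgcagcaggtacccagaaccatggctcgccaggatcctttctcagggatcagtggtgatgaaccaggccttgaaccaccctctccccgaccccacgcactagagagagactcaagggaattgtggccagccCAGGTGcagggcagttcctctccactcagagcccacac
Igll1 upstream: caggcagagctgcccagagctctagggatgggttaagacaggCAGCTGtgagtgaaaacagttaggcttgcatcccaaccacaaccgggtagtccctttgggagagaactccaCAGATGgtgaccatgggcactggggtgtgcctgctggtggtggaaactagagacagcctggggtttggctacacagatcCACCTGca
On either strand this word is in 36.1% of the 200-base stretches upstream of coding genes, and it was found in 3 of the 9 members, with Rag1 as the other. The EBF word CCCNNGGG was in 11.6% of all such stretches and in none of the 9. It was also in none of the 6 site centres, against 8.01% of all open sites. A match or its lack is only a statement about these letters.

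CpG content went along with openness across coding genes, and the 9 genes ranged from the 10.7th to the 68.2nd percentile of CpG content. The observed over expected CpG ratio of the 1-kb promoter window was lowest for Igll1 (0.117) and Il7r (0.141) and highest for Pax5 (0.663) and Vpreb1 (0.720). Of coding genes with a ratio of 0.6 or more, 96.8% were open, and of the 11846 below it 31.4%. Vpreb1 was CpG-rich and open. Pax5 was CpG-rich and not open at the gene start, while Ebf1 was open with a ratio of 0.492. The other 6 genes were below 0.6 and closed.

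**Figure D3:**
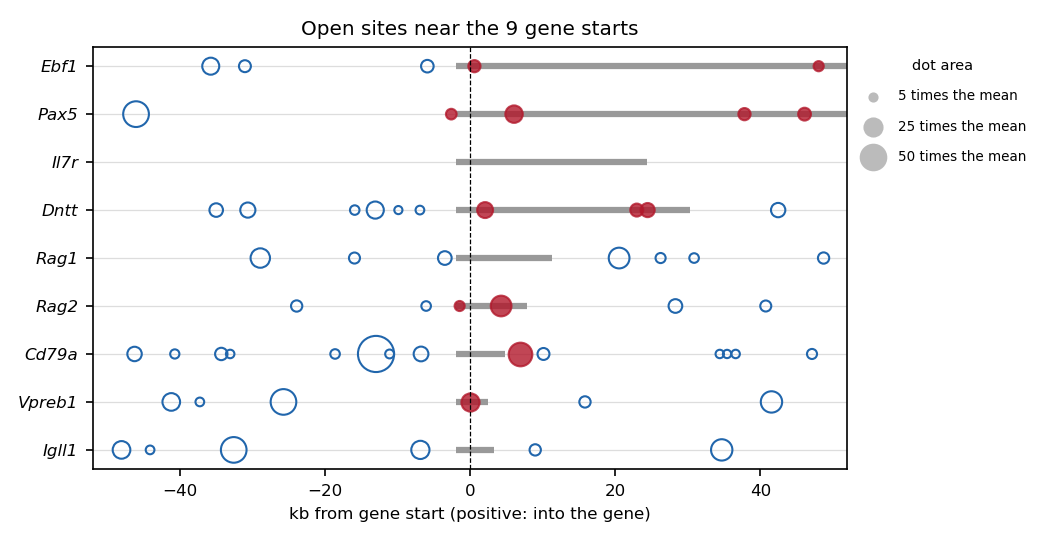
Open sites within 50 kb of the start of each of the 9 genes, by distance from the start (positive values run into the gene), with the dot area giving the cut density as times the genome mean. Red dots touch the gene or its 2 kb upstream (grey bars), blue circles lie outside; Il7r has no site, and among the red dots the strongest of Dntt, Rag2 and Pax5 by cuts lie inside the genes at 2.05, 4.26 and 6.04 kb.

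In all, 19 open sites touched the 9 gene windows: 6 each for Ebf1 and Pax5, 3 for Dntt, 2 for Rag2, 1 each for Cd79a and Vpreb1, and 0 for Il7r, Rag1 and Igll1. Over the genome the same rule gave 66646 open sites, spanning 77.2 Mb of 2647521431 bases. The windows of Ebf1 and Pax5 are the longest, at 393 and 188 kb, and the others span 4.44 to 32.3 kb. Whether the 9 windows hold more or fewer sites than their length would give was not tested. The strongest site of each of the 6 genes with a site (for Cd79a that at the Arhgef1 promoter) was then looked at cell by cell. Of the 3629 cells, 763 had a fragment in none of the 6 sites, 1423 in 1, 988 in 2, 360 in 3, 84 in 4 and 11 in 5. The median number of fragments of these cells rose in the same order from 9242 to 14515. Depth therefore moved with the number of sites seen, and its part was not tested. The Ebf1 site was seen in 19.5% (17.2% to 22%) of the 1071 cells with a fragment at the Pax5 site and in 16.7% (15.2% to 18.2%) of the others, with median depths of 10898 and 10065 fragments. The Dntt site was seen in 15.1% of cells with the Rag2 site and in 12.7% of the others, and these intervals overlap as well. Other pairs went the other way, such as the Rag2 site, seen in 16.7% of cells with the Vpreb1 site and in 17.5% of the others.

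The other genes of the B-cell pathway were mostly open. Of 30 regulators, interleukin-7 signalling genes and early B-cell genes, 25 had an open promoter (61.5% of all coding genes), with a median of 26.3 times the genome mean. Tcf3, which encodes the E2A proteins, and the survival gene Bcl2 were highest at 151 and 101.5 times. The coactivator gene Pou2af1 and the surrogate light chain gene Vpreb2 were lowest at 0.309 and 0.516 times. Flt3, the receptor of lymphoid-primed progenitors, was open at 42.0 times, and Foxo1, Bach2 and Irf8 stood at 77.3, 67.6 and 51.7 times. The closed 5 were Pou2af1, Vpreb2, Vpreb3, the kinase gene Blk and Spib.

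Markers of other cells served as a reference for the list. Of 11 mature B-cell markers 5 were open, with Cd74 and Cd72 highest (57.6 and 26.2 times the mean) and Ms4a1 and Ly6d lowest (0.0688 and 0.344 times). T-cell markers were open for 3 of 12, with Tcf7 (32.7 times) and Bcl11b (6.05 times) highest and Cd8a (0.0344 times) and Themis (0.138 times) lowest. Of myeloid markers 3 of 10 were open (Prtn3 17.8 and Csf3r 12.2 highest, Ctsg 0.138 and Csf1r 0.275 lowest). Of 8 megakaryocyte markers 5 were open, with Itga2b (47.5) and Gp1ba (39.6) highest and Gp6 (0.103) and Ppbp (1.17) lowest.

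No doublet caller was run here, and how doublets were treated in these files was not examined.

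The study combined CD27, CD357, CD61 and CD274 on the cell surface to part HSCs of different lineage bias. Its platelet-biased HSCs were high in CD61 and CD274 and low in CD357 and CD27, and its multi-lineage HSCs the reverse. Here the 9 genes were compared between cells with high and low raw counts of 1 antibody at a time. These groups are therefore not the subtypes of the study. For CD27 these were 825 cells with 2 to 14 tags against 1578 cells with 0 tags, for CD357 968 cells with 5 to 24 tags against 1200 with 0 to 1, for CD61 779 cells with 6 to 56 tags against 727 with 0 to 1, and for CD274 937 cells with 27 to 110 tags against 877 with 2 to 12. Median depth was alike in the 3 groups of each antibody, between 10152 and 10487 fragments.

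The 9 genes summed showed close levels in every group. With CD27 they held 244 FPM in low, 245 FPM in middle and 246 FPM in high cells, a log2 ratio of high over low of 0.0075 (−0.068 to 0.082). The ratio was −0.020 (−0.096 to 0.056) for CD357, 0.012 (−0.079 to 0.10) for CD61 and 0.022 (−0.060 to 0.10) for CD274. Ebf1 and Pax5 hold most of this sum, so the genes were also read one at a time.

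A gene was called when its log2 ratio was 0.5 or more in size with at least 50 fragments over both groups. For CD27, 1 of the 8 genes with enough fragments was called, Rag1, against 0.58% of all genes tested that were called higher and 0.83% that were called lower. These shares cover all genes with at least 50 fragments, and Rag1 lies just above that floor. In the smaller groups of cells with at least 50 tags, 10.4% of genes tested were called for CD27. Rag1 held 29 fragments in low, 28 in middle and 28 in high cells, or 1.76, 2.18 and 3.05 FPM, a log2 ratio of 0.80 whose interval reached to 0 (−0.0085 to 1.59). Without the deepest 5% of cells it held 17 fragments in high and 25 in low cells, too few for a call, and a log2 ratio of 0.47. CD27-high cells also held more tags of the other antibodies (median 31 against 27), whose part was not tested. The same went for CD357 (29 against 24), CD61 (28 against 22) and CD274 (11 against 8). None of the genes was called for CD357 (0 of 8, background 0.777% higher and 0.829% lower), CD61 (0 of 6, 0.968% and 0.962%) or CD274 (0 of 7, 0.902% and 1.63%). Rag1 was higher in high cells there too, with log2 ratios of 0.40 for CD357, 0.53 for CD61 and 0.45 for CD274. These intervals included 0, and for CD61 and CD274 Rag1 had too few fragments for a call.

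**Figure D4:**
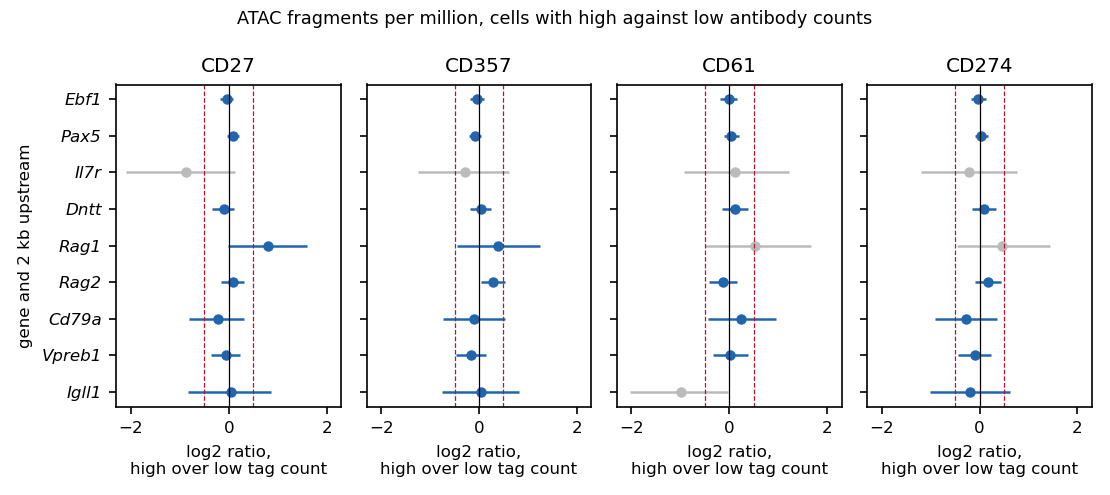
Log2 ratio of FPM over each gene with 2 kb upstream between cells with high and low counts of each antibody, with exact conditional 95% counting intervals. Blue genes had at least 50 fragments over both groups and grey genes fewer. The red dashed lines mark the size of 0.5 used for a call, which among blue genes only Rag1 passed, for CD27.

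The transcription factor genes, which had the most fragments, gave the tightest values. Ebf1 stood at 74.4 FPM in CD27-low, 72.2 in middle and 72.3 in high cells, and its log2 ratio lay between −0.043 and −0.013 for the 4 antibodies. Pax5 stood at 88.3, 91.3 and 93.6 FPM over the CD27 groups, and its log2 ratio lay between −0.073 and 0.084. All 8 of these intervals included 0. Under alternatives not all did. With antibody counts as centred log ratios within each cell, Pax5 gave 0.17 (0.036 to 0.31) for CD27. Over its open sites only, counted by cuts, it gave −0.17 (−0.28 to −0.054) for CD357. Both ends of a fragment enter that count as if independent, so this interval is too narrow. For the other antibodies these 2 settings gave Pax5 intervals that included 0.

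Only the promoters of Ebf1 and Vpreb1 held enough fragments to be judged alone, and 0 of these 2 were called for any antibody. The share of all promoters called higher and lower was 1.03% and 1.37% for CD27, 1.25% and 1.53% for CD357, 2.26% and 1.43% for CD61, and 2.66% and 1.56% for CD274. The Ebf1 promoter was nearest to a call, with CD274. It held 74 fragments in low, 194 in middle and 115 in high cells, or 7.91, 10.3 and 11.1 FPM, a log2 ratio of 0.49 (0.058 to 0.93), just short of the size for a call. Over the whole 4.5-kb site at the start the ratio was 0.28 (−0.012 to 0.58). In CD27 the same promoter gave −0.038 (−0.44 to 0.35). CD274-high cells also differed in a measure outside these genes, with 68.5% of fragments in peak regions against 66.3% in low cells, and its part in the promoter value was not tested.

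Of the recombination genes, Rag2 was higher in CD357-high cells by less than a call. It held 21.6 FPM in low, 26.4 in middle and 26.3 in high cells (log2 ratio 0.28, 0.035 to 0.53), and its strongest site, shared with B230118H07Rik, gave 0.16 (−0.12 to 0.43). In the cells with at least 50 tags the Rag2 ratio turned to −0.51 (−1.34 to 0.31, on 26 fragments in high and 28 in low cells). Dntt gave log2 ratios from −0.11 to 0.12 over the 4 antibodies, and its strongest intronic site from −0.23 to 0.25, with 0 inside all these intervals. Over open sites only, counted by cuts with intervals that are too narrow, not all intervals held 0. Dntt gave −0.21 (−0.40 to −0.018) for CD27 and 0.28 (0.071 to 0.49) for CD274. Rag2 gave 0.21 (0.021 to 0.40) for CD357 and 0.23 (0.021 to 0.44) for CD274. For the other antibodies the intervals of both genes included 0. Il7r had too few fragments for a call with any antibody in these groups. Over the gene with 2 kb upstream it held 34 fragments in CD27-low, 34 in middle and 10 in high cells, a log2 ratio of −0.87 (−2.10 to 0.13). Its promoter held 9 fragments in CD27-low, 7 in middle and 0 in high cells, where the interval reaches 0.402 FPM. The interval of the promoter log2 ratio lay below −0.136, on too few fragments for a call. With centred log ratios for CD27 the whole Il7r window gave −1.33 (−2.78 to −0.14), on 8 fragments in high and 20 in low cells. A split at the median, with enough fragments for a call, is given at the end.

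Vpreb1 and Cd79a showed no interval away from 0 between these groups with any antibody. The log2 ratios ran from −0.16 to 0.022 for Vpreb1 and from −0.27 to 0.25 for Cd79a. In the cells with at least 50 tags, Cd79a held 0 fragments in CD274-high and 11 in CD274-low cells. The interval of that ratio lay below −1.45, on too few fragments for a call. Over the CD27 groups Cd79a stood at 5.4 FPM (4.34 to 6.65) in low, 2.96 FPM (2.09 to 4.06) in middle and 4.58 FPM (3.3 to 6.19) in high cells, so the middle group was lowest. Igll1 held 26 fragments in CD61-low, 52 in middle and 15 in high cells (3.45, 2.34 and 1.72 FPM), a log2 ratio of −0.98 (−2.02 to −0.031). That was under the 50 fragments needed for a call, and alternatives with more fragments that called Igll1 lower are given at the end.

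Among the 19 open sites of the genes, those with at least 50 fragments over both groups numbered 18 for CD27, 15 for CD357, 13 for CD61 and 15 for CD274. For CD27 the Ebf1 site 276 kb downstream was higher (log2 ratio 0.52, −0.27 to 1.28) and that at 391 kb lower (−0.68, −1.60 to 0.11), where 4.68% and 3.99% of all sites were called. For CD357 the Pax5 sites at 37.8 kb and 146 kb were higher (0.50, −0.022 to 1.04) and lower (−0.57, −1.25 to 0.073), where 4.07% and 4.66% were. For CD274 the Pax5 site at 37.8 kb was higher (0.63, 0.0008 to 1.31) and the Ebf1 site at 280 kb lower (−0.54, −1.11 to 0.0071), where 9.26% and 4.02% were. None of the 13 sites was called for CD61, where 6.23% of all sites were called higher and 3.98% lower. The internal Pax5 site, with 1382 fragments, gave log2 ratios between −0.18 and 0.096.

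The other 30 pathway genes were read in the same way. For CD27, 1 of the 29 with enough fragments was called lower and 0 higher (0.83% and 0.58% of all genes tested), with log2 ratios from −0.88 to 0.16 and a median of −0.0037 against −0.0036 for all genes tested. For CD357, CD61 and CD274, 0 of 29, 0 of 28 and 0 of 28 were called, beside the shares of all genes given above, with medians of 0.0085, −0.029 and 0.024.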

How the data were processed

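LT-HSCs of 1 pool were measured in 3 libraries (ATAC, gene expression and antibody tags), and the gene expression matrix was not analysed here. The authors processed ATAC reads with Cell Ranger ARC 2.0.2 on mm10 (submitters' processing notes and file header), which collapses duplicates to 1 line per fragment and shifts ends for the Tn5 cut. The deposited antibody table holds tag counts made with CITE-seq-Count (version not given in the sources used here), and the deposited per-barcode table holds counts of fragments and UMIs. No column of another sample was set aside.

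Fragments of barcodes with at least 10 tags were counted once per window they overlapped, in Python 3.11.15 with numpy 2.4.6, scipy 1.17.1 and pandas 2.3.3. Gene starts and ends were those of GENCODE M21 coding genes, and the promoter reached 500 bp to each side of the gene start. Both sex chromosomes were included and mitochondrial fragments were not. The genome mean used the bases of RefSeq GRCm38.p6 that are not N. Antibody groups were the cells nearest to the lowest and highest 25% by count, ties kept together. Each ratio was scaled by all nuclear fragments of its group, after a pseudocount of 0.5 fragments. With 1 library no test was run. Intervals were exact Poisson (levels), Clopper-Pearson (shares of cells) and conditional binomial (ratios), all for counting error only. Those on cuts treat both ends of a fragment as independent and so are too narrow. The ratios, their intervals and the calls were tested on simulated gene counts, and the counting of fragments in windows was not. The simulated counts followed the Poisson model that the intervals assume, so spread beyond counting error was not tested. Its changed genes had many fragments and ratios larger than a call needs. Recovery of smaller changes, or of genes near the fragment floor, was therefore not tested. All 9 genes matched RefSeq promoters by symbol.

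The 9 genes were named in every result. In each reference list the 2 highest and 2 lowest promoters were named; other names in the text were chosen after their values were seen, and some results are not reported here. Members and lists were chosen with earlier results of these data known. Alternatives covered cells kept, windows, gene starts, fragment length, thresholds, antibody scaling and groups.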

Additional observations from a re-analysis of the deposited data

How the results depend on the processing

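Depth limits Il7r, Dntt, Rag1, Cd79a and Igll1 most, since 16 to 22 fragments lie behind each promoter level. The median promoter level of the 9 genes was 0.571 FPM. It became 0.917 FPM in the 363 cells with at least 50 tags and 0.987 FPM with 1 kb on each side of the start, a window of double length by construction, and 0.360 FPM with fragments of up to 120 bp only, scaled by all such fragments. The count of 2 open promoters fell to 1 without fragments over promoters of other genes, and to 1 at RefSeq starts, an alternative chosen after seeing the data. It was 3 at a threshold of 3 times the mean (64.2% of coding genes) and at the most accessible start, and 2 at 10 times the mean (55.9%). The 19 open sites became 28 at 3 times the mean, 15 at 10 times and 27 with bins of 200 bp.

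The CD27 count of 1 called gene (Rag1) became 0 under 5 alternatives. With the promoter only (10 fragments in high and 9 in low cells, log2 ratio 0.99) and with centred log ratios (26 and 15 fragments, 0.71) Rag1 stayed past 0.5 but had fewer than the 50 fragments a call needs. With open sites only it has no site and so no fragments. Without the deepest 5% of cells it gave 0.47. With cells split at the median the count was 2, where 1.64% of all genes tested were called. These were Rag1 (0.66, −0.057 to 1.33) and Il7r (−1.03, −2.21 to −0.12). With at least 50 tags Rag1 reversed to −0.54, with 2 fragments in high and 4 in low cells. The CD357 count of 0 became 3 with at least 50 tags (Ebf1 −0.54, Pax5 0.61 and Rag2 −0.51, the latter 2 with their sign turned from −0.07 and 0.28), where 11.3% of all genes tested were called. The CD61 count of 0 became 1 with centred log ratios (Igll1 −0.82, −1.74 to 0.018, where 1.81% of all genes were called). It was also 1 with the median split (Igll1 −0.78, −1.45 to −0.15, 1.11%). With at least 50 tags Dntt was called (0.58, 9.18%), and without the deepest 5% of cells Cd79a was (0.52, 2.13%). In these last 2 settings Igll1 gave 0.48 and −1.36, with too few fragments for a call. Other causes were not tested. The CD274 count was 0 under every alternative. Of single values, 63 of 90 promoter levels, 47 of 63 gene levels and 162 of 198 log2 ratios stayed inside the counting interval of the reported value. No paired analysis was possible because each assay has 1 library.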
